A study of Mus musculus with 9 samples.

Results

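Translation initiation factors were followed in immature mouse neurons given 2-deoxyglucose (2-DG), as the genes whose symbols begin with Eif1 to Eif6. Of 55 such symbols, the 7 of eIF2 kinases and eIF4E-binding proteins were left out, as were 2 with under 100 counts over the 9 libraries. The remaining 46 genes, of 24060 named rows, all passed the filter on low counts and were tested. The genes nearest the limit were Eif4e1b with 20 counts and Eif3j2 with 0 outside it, and Eif3j1 with 235 and Eif4e3 with 3917 inside it. The neurons came from embryos of embryonic day 14 and had grown for 2 days in vitro with horse serum and fetal bovine serum. They were then kept for 6 h untreated (control), in 1 mM 2-DG or in 10 mM 2-DG, with 3 libraries for each dose. 2-DG is a glucose analogue that enters cells through glucose transporters and hinders glycolysis once phosphorylated. The replicates are called independent in the series design, but whether they were separate cultures or how many embryos were pooled is not stated in the labels. The p-values therefore measure the spread between these libraries, which may in part be technical.

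Translation begins when eIF2, loaded with GTP and the initiator tRNA, joins the small ribosomal subunit together with eIF1, eIF1A, eIF3 and eIF5. The cap complex eIF4F (eIF4E, eIF4G and eIF4A) brings the mRNA, and the assembly scans to the start codon. Under stress, kinases phosphorylate the alpha subunit of eIF2, which then inhibits its exchange factor eIF2B, so that most translation slows while the transcription factor ATF4 is made. The series title names ATF4 and stress of the endoplasmic reticulum.

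Levels are in CPM (counts per M counts of a library, M being mega) after scaling by trimmed means (TMM), and differences are log2 fold changes with standard errors (SE). Adjusted p comes from the quasi-likelihood test of edgeR, adjusted by Benjamini and Hochberg's method over 15153 genes. A gene was called where that p was under 0.05. The libraries held 40.1 M to 48.2 M gene counts, and initiation factor genes had between 15 (Eif3j1) and 68368 (Eif4g2) counts in a library. All 11 listed neuronal markers were expressed, with summed levels of 7447 to 7735 CPM in control libraries, 7139 to 7444 CPM at 1 mM and 6200 to 6621 CPM at 10 mM. Of these, 0 were called at 1 mM against the control, and 3 fell at 10 mM. Of 11 microglial markers, 6 fell at 1 mM and 10 at 10 mM, and of 8 progenitor markers, 2 and 3 fell. Those progenitor markers were Fabp7 (by 0.76 and 1.65) and Nes (by 0.49 and 0.73), with Hes5 (by 0.69) at 10 mM. Against the control, 0 of the 8 had a positive log2 fold change at either dose. Over all genes tested, 4.34% were called lower at 1 mM and 24% at 10 mM. The 3 of 11 neuronal markers that fell at 10 mM lie near that share. The 11 microglial markers summed to 52.9 to 78.4 CPM, 24.4 to 29.6 CPM and 25.6 to 36.9 CPM at the same doses, and the 8 progenitor markers to 1864 to 2410 CPM, 1568 to 1952 CPM and 1515 to 1845 CPM. The 6 markers of the oligodendrocyte lineage summed to 68.2 to 71.1 CPM in control libraries, 55.0 to 61.9 CPM at 1 mM and 47.3 to 55.9 CPM at 10 mM. Of the 5 of them tested, 1 fell at 1 mM and 2 at 10 mM. Olig1, of early oligodendrocyte progenitors, fell by 0.86 at 1 mM and fell by 2.23 at 10 mM, where Olig2 fell by 0.49. At 10 mM Pdgfra (-0.51), Mbp (-0.15) and Cspg4 (0.10) were not called (adjusted p 0.143 to 0.616). The summed levels of the lists for astrocytes, endothelial cells and fibroblasts overlapped between all 3 doses, though single markers were called. Of 5 astrocyte markers tested, 0 fell at 1 mM and 1 at 10 mM (Aqp4, by 1.03). Of 5 endothelial and pericyte markers, Rgs5 fell by 0.51 at 1 mM and 0.84 at 10 mM. Pecam1 rose by 0.64 at 10 mM, where 25.7% of all genes were called higher. Of 4 fibroblast markers, 0 fell at 1 mM and 1 at 10 mM (Dcn, by 0.98). The 5 erythroid markers summed to at most 0.542 CPM. Counts on Rn45s, a ribosomal RNA gene, made up 0.96 to 1.05% in the control, 0.589 to 0.884% at 1 mM and 0.534 to 0.563% at 10 mM. The part of these shifts in the results below was not tested, and in cultures of mixed cells fewer cells of a type and less RNA per cell cannot be told apart.

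At 10 mM, 23 of the 46 initiation factor genes rose and 6 fell against the control, where 25.7% of all genes tested were called higher and 24% lower. The risers were led by Eif2s2 (eIF2 beta) and Eif1, and they included most subunits of eIF3 and eIF2B. The fallers were Eif5a, Eif5a2, Eif1ax, Eif4a3, Eif4g1 and Eif4e2. The median log2 fold change was 0.22 over the 46 genes and -0.01 over all genes. The 10 mM and control libraries did not overlap for 30 of the 46, against 56.8% of all genes tested. At 1 mM against the control that held for 19 of the 46, against 27.8% of all genes, and between the doses for 24 of the 46, against 44.6%. At 1 mM, 7 of the 46 rose (Eif1, Eif1a, Eif5, Eif2a, Eif2s2, Eif3c and Eif4b) and 5 fell (Eif5a, Eif5a2, Eif1ax, Eif4a3 and Eif4g1) against the control. Over all genes tested, 5.69% were called higher and 4.34% lower at that dose. The medians were 0.07 for the 46 genes and 0.00 for all genes. Between the doses, 19 of the 46 were higher at 10 mM than at 1 mM and 0 lower, against 17.5% and 13.7% of all genes, with medians of 0.17 and 0.00. The comparisons share libraries, so their calls are not independent of each other.

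Libraries with the same replicate number deviated together, and a fit with the replicate number as a block called more of these genes. With the block, 21 rose and 8 fell at 1 mM against the control, where 18.1% of all genes were called higher and 18.3% lower. The 17 added at 1 mM were Eif1ad, Eif2b2, Eif2b3, Eif2b4, Eif2b5, Eif3a, Eif3d, Eif3e, Eif3f, Eif3h, Eif3m, Eif4a2, Eif4g2 and Eif4g3 as risers and Eif4a1, Eif4e and Eif4h as fallers. At 10 mM against the control 32 rose and 6 fell with the block, where 34.4% and 33.8% of all genes did, and the 9 risers added were Eif1b, Eif2b1, Eif2s1, Eif2s3y, Eif3b, Eif3g, Eif3k, Eif3l and Eif5b. Between the doses the block gave 35 higher and 2 lower at 10 mM than at 1 mM, against 30.7% and 25.6% of all genes. The 18 added there were those 9 with Eif1ad, Eif2b3, Eif2b5, Eif3h, Eif4e, Eif4enif1 and Eif4h, all higher, and Eif4e2 and Eif5a, both lower. The calls at 1 mM were sensitive to single libraries in the fit without a block. Leaving out 1 mM replicate 1 left 4 risers there, where 3.37% of all genes were called higher. With each library left out in turn, 1.91 to 4.39% of all genes were called lower at 1 mM. The 5 fallers became 3 without replicate 1 of either dose or without 10 mM replicate 3, became 2 without control replicate 1 or without 1 mM replicate 2 or 3, and became 1 without control replicate 3. Scaling by library totals alone moved the median of all genes at 10 mM against the control to -0.10. Of all genes called there, 37.4% were then higher rather than 51.7%, while of the initiation factor genes called 76.9% were higher rather than 79.3%. Between the doses that scaling gave 12 higher and 2 lower initiation factor genes, against 10.3% and 19.5% of all genes, or 85.7% higher rather than 100%, while of all genes called 34.6% were higher rather than 56.1%.

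**Figure D1:**
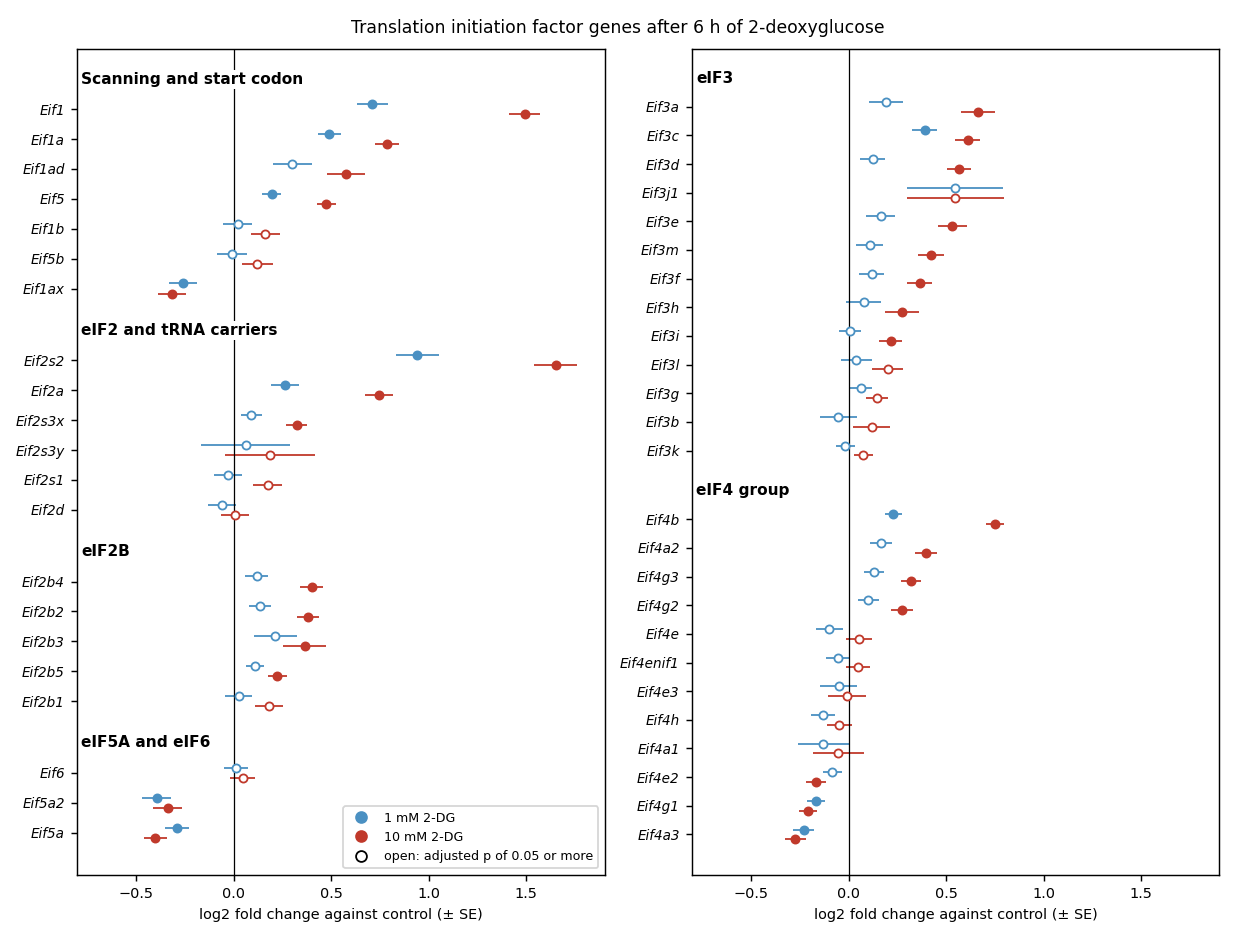
Log2 fold change against the control (x axis, ± SE) of each of the 46 initiation factor genes, grouped by role, at 1 mM (blue) and 10 mM 2-DG (red), with 3 libraries per dose; open points had an adjusted p of 0.05 or more. At 10 mM the points reach 1.65 for Eif2s2 and 1.49 for Eif1, the eIF3 and eIF2B points lie right of 0, and Eif5a lies farthest left at -0.40.

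The stretches before the transcription start were searched for the letters of 2 motifs, and 4 windows are shown. They belong to the genes with the largest rises, Eif2s2 and Eif1, and to the eIF5A genes, which fell. The RefSeq promoter table (GRCm38.p6) held windows from 250 bases before to 50 after the start for 38 of the 46 genes. Each sequence below gives the 250 bases before the start in the direction of transcription, and capitals mark CACGTG, the E-box that MYC, MAX, USF and related factors can bind. The windows are chr2:154892907-154893156 (minus strand) for Eif2s2, chr11:100319699-100319948 (plus) for Eif1, chr11:69921387-69921636 (minus) for Eif5a and chr3:28781027-28781276 (plus) for Eif5a2. The table holds several starts for Eif5a. Where a gene had several, a window with a motif before the start was taken first. The Eif5a window shown was thus chosen in part for holding CACGTG. All 4 starts used here lie within the span that GENCODE gives the gene.
Eif2s2: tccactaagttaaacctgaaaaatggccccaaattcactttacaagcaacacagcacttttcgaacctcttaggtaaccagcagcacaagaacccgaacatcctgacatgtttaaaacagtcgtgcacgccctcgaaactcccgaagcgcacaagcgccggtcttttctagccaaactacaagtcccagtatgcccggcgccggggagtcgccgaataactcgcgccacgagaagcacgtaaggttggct
Eif1: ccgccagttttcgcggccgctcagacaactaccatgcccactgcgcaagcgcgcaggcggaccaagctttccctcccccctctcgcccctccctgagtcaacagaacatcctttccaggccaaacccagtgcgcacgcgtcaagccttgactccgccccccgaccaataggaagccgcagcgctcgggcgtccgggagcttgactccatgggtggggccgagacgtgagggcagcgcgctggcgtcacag
Eif5a: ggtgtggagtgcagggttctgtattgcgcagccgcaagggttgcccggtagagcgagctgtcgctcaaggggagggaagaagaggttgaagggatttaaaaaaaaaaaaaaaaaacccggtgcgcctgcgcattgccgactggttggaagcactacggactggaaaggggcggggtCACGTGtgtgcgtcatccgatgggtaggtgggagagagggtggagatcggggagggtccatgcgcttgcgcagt
Eif5a2: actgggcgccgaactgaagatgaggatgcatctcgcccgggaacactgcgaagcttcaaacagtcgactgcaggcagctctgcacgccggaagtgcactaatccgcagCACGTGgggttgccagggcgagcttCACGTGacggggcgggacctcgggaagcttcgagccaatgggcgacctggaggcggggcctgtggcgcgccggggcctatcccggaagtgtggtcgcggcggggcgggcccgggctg
The Eif5a window held CACGTG at base -74 and the Eif5a2 window at bases -142 and -117, counted from the start, and the Eif2s2 and Eif1 windows did not hold it. CACGTG, which reads the same on both strands, stood in windows of 10 of the 38 genes (26.3%), against 11.4% of the 11106 genes tested that had a window and 8.09% of the 27025 genes in the table. The 10 were 3 of the 6 that fell at 10 mM (Eif5a, Eif5a2 and Eif4g1), 5 of the 15 that were not called (Eif1b, Eif3k, Eif4a1, Eif4e and Eif4h) and 2 of the 17 that rose (Eif3a and Eif3f). TGATGNAA is the core of the composite element that ATF4 binds with C/EBP partners. Searched on both strands, it stood in a window of 1 of the 38 genes, Eif2s3x (2.63%), against 2.8% of genes tested and 4.51% of all genes in the table. A match is a description of the letters, and its absence says only that they are not in these windows.

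Among eIF2 subunits, Eif2s2 rose while Eif2s1 was not called. Eif2s2 (ENSMUSG00000074656, chromosome 2, 154871410 to 154892935, mm10) encodes eIF2 beta, the subunit that eIF5 and eIF2B contact. It had 84.2, 78.2 and 87.3 CPM in the control libraries, 166, 132 and 182 CPM at 1 mM and 263, 234 and 287 CPM at 10 mM (replicates 1, 2 and 3). The groups did not overlap, and replicate 2 was lowest at each dose. The log2 fold change against the control was 0.94 (SE 0.109, adjusted p = 3.54e-04) at 1 mM and 1.65 (SE 0.111, adjusted p = 1.33e-06) at 10 mM, a 3.14-fold level, and 10 mM stood 0.71 above 1 mM (adjusted p = 9.71e-04). Of the 75-base windows of its longest coding transcript, 22.4% also occur in Gm9892, a like sequence to which a counter could assign reads.

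Eif2s1 (ENSMUSG00000021116, chromosome 12, 78861819 to 78887010) encodes eIF2 alpha, the subunit that stress kinases phosphorylate. It had 116, 103 and 117 CPM in control libraries, 114, 102 and 115 CPM at 1 mM and 133, 116 and 131 CPM at 10 mM. The control and 10 mM libraries overlapped through replicate 2 at 10 mM. Its log2 fold change at 10 mM against the control was 0.17 (SE 0.073, adjusted p = 0.0688) without a block and 0.17 (adjusted p = 2.28e-05) with the replicate block. The gamma subunit has an X-linked and a Y-linked gene. Eif2s3x rose at 10 mM by 0.32 (adjusted p = 6.09e-04), although 35.7% of its windows occur in other genes. Eif2s3y differed by 0.19 (adjusted p = 0.528), with replicate 2 low at each dose, at 36.2, 35.7 and 41.3 CPM for control, 1 mM and 10 mM, where the other libraries had 53.7 to 67.7 CPM. With the block its difference was 0.18 (adjusted p = 6.69e-04).

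Eif2a and Eif2d encode proteins that can bring initiator tRNA to the ribosome without eIF2. Eif2a (chromosome 3, 58525821 to 58557501) had 65.4, 64.8 and 71 CPM in control libraries, 82.1, 73.1 and 86.3 CPM at 1 mM and 115, 104 and 118 CPM at 10 mM, again without overlap. It rose by 0.26 (SE 0.0718, adjusted p = 0.0424) at 1 mM and by 0.74 (SE 0.0718, adjusted p = 1.62e-05) at 10 mM. The call at 1 mM was lost without any control library, without replicate 1 or 3 of 1 mM, or without replicate 1 or 3 of 10 mM (adjusted p 0.0512 to 0.15). Its exons overlap those of Serp1 on the opposite strand by 72 bases, and Serp1 rose by 0.90 at 1 mM (adjusted p = 2.95e-05) and by 1.18 at 10 mM (adjusted p = 1.03e-06). Eif2d was not called, with a log2 fold change of 0.01 at 10 mM (adjusted p = 0.959). Of the 6 genes in this role, 2 rose and 0 fell at 1 mM, and 3 rose and 0 fell at 10 mM (5 and 0 with the block). The medians were 0.08 and 0.25. Of all genes tested, 5.69% were called higher and 4.34% lower at 1 mM. At 10 mM these shares were 25.7% and 24%, and 34.4% and 33.8% with the block.

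Among factors of scanning and start codon choice, Eif1 and Eif1a rose at both doses. Eif1 (ENSMUSG00000035530, chromosome 11, 100319885 to 100322096) encodes eIF1, which keeps the scanning ribosome open and rejects poor start codons. It had 63.2, 60.1 and 62.4 CPM in control libraries, 108, 91.3 and 104 CPM at 1 mM and 188, 156 and 178 CPM at 10 mM. The doses did not overlap, and the control libraries lay closest together. The rise was 0.71 (SE 0.0786, adjusted p = 2.57e-04) at 1 mM and 1.49 (SE 0.0793, adjusted p = 2.49e-07) at 10 mM, a 2.81-fold level. Its paralogue Eif1b had 190, 168 and 177 CPM at 10 mM and 173, 150 and 155 CPM in control libraries, in overlapping ranges, with a log2 fold change of 0.16 (adjusted p = 0.0926, and 2.7e-05 with the block). Of the windows of Eif1, 25.6% occur in other genes, and of those of Eif1b 0%.

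Eif1a and Eif1ax both encode eIF1A, the partner of eIF1 on the scanning ribosome. Eif1a had 62.6, 63.6 and 59.8 CPM in control libraries, 85.7, 82 and 93.6 CPM at 1 mM and 102, 106 and 113 CPM at 10 mM. X-linked Eif1ax had 143, 128 and 138 CPM in control libraries, 122, 104 and 115 CPM at 1 mM and 114, 101 and 112 CPM at 10 mM. So every treated library stood above every control library for Eif1a and below it for Eif1ax. Eif1a rose by 0.49 (SE 0.0609, adjusted p = 5.50e-04) and 0.78 (SE 0.061, adjusted p = 3.85e-06) at 1 and 10 mM. Eif1ax differed by -0.26 (SE 0.0715, adjusted p = 0.045) and -0.32 (SE 0.0716, adjusted p = 0.00386). Its call at 1 mM was lost without control replicate 1 or 3, 1 mM replicate 2 or 3, or 10 mM replicate 1 or 3 (adjusted p 0.0627 to 0.16).

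Eif1ad, named for an eIF1A-like domain, had 47.6, 38 and 45 CPM in control libraries, 57.9, 46.9 and 55.9 CPM at 1 mM and 65.6, 60.1 and 68.9 CPM at 10 mM. Replicate 2 was lowest at each dose, and only the control and 1 mM ranges overlapped. The rise at 10 mM was 0.58 (SE 0.099, adjusted p = 7.48e-04), and the difference at 1 mM was 0.30 (adjusted p = 0.086, and 9.81e-06 with the block). Its exons overlap Banf1 on the other strand by 428 bases, and Banf1 was not called at 10 mM (0.13, adjusted p = 0.105). Eif5 encodes the factor that makes eIF2 hydrolyse its GTP, and rose by 0.20 (adjusted p = 0.0293) at 1 mM and 0.47 (adjusted p = 2.47e-05) at 10 mM. The call of Eif5 at 1 mM was lost without any control library or without 1 mM replicate 1 or 3 (adjusted p 0.0592 to 0.107). Eif5b, whose protein joins the ribosomal subunits, differed by 0.12 at 10 mM (adjusted p = 0.217, and 0.0179 with the block), and shares 1643 exon bases with Rev1 on the other strand. Of the 7 genes listed in this role, Eif1ad among them by its name, 3 rose and 1 fell at 1 mM. At 10 mM 4 rose and 1 fell, and the medians were 0.20 and 0.47. The block added Eif1ad as a riser at 1 mM and Eif1b and Eif5b as risers at 10 mM. Of all genes tested, 5.69% were called higher and 4.34% lower at 1 mM, and 25.7% and 24% at 10 mM. With the block these shares were 18.1% and 18.3% at 1 mM, and 34.4% and 33.8% at 10 mM.

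Of the 5 subunits of eIF2B, which recharges eIF2 with GTP, 4 rose and 0 fell at 10 mM against the control. Over all genes tested, 25.7% were called higher and 24% lower there. The log2 fold changes of the 5 were 0.40 for Eif2b4 (adjusted p = 2.56e-04), 0.38 for Eif2b2 (adjusted p = 2.31e-04), 0.36 for Eif2b3 (adjusted p = 0.0196), 0.22 for Eif2b5 (adjusted p = 0.00288) and 0.18 for Eif2b1 (adjusted p = 0.0548, and 2.59e-04 with the block). Eif2b1 thus did not pass the test without the block. Eif2b5 (ENSMUSG00000003235, chromosome 16, 20498817 to 20509323) encodes the catalytic epsilon subunit. It had 136, 129 and 128 CPM in control libraries, 145, 139 and 140 CPM at 1 mM and 160, 147 and 152 CPM at 10 mM. Neither dose overlapped the control. At 1 mM the difference of Eif2b5 was 0.11 (SE 0.0479, adjusted p = 0.195, and 0.00516 with the block), and 0 of the 5 subunits were called there (4 higher with the block). The block called 18.1% of all genes higher at 1 mM. Eif2b3 lost its call at 10 mM when control replicate 1 or 2, or 10 mM replicate 1 or 3, was left out (adjusted p 0.0531 to 0.0835), and under library totals alone (0.27, adjusted p = 0.0527).

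The eIF3 complex, which binds the small subunit and bridges it to eIF4G, had 8 of 13 genes that rose at 10 mM and 0 that fell (12 and 0 with the block). Of all genes tested, 25.7% were called higher and 24% lower there (34.4% and 33.8% with the block). The median log2 fold change of the 13 was 0.36. Eif3a (ENSMUSG00000024991, chromosome 19, 60761117 to 60790658) encodes the largest core subunit. It had 379, 351 and 412 CPM in control libraries, 449, 385 and 472 CPM at 1 mM and 626, 547 and 638 CPM at 10 mM, and only the control and 1 mM ranges overlapped. Its rise at 10 mM was 0.66 (SE 0.0877, adjusted p = 1.33e-04), and the difference at 1 mM was 0.19 (adjusted p = 0.21, and 1.12e-05 with the block). Eif3c (chromosome 7, 126546455 to 126566411), another core subunit, had 441, 414 and 449 CPM in control libraries, 573, 522 and 613 CPM at 1 mM and 672, 626 and 693 CPM at 10 mM. The control stood below every treated library. Eif3c rose by 0.39 (SE 0.0638, adjusted p = 0.00334) at 1 mM, where it was the 1 eIF3 gene called (7 with the block), and by 0.61 (SE 0.0639, adjusted p = 2.81e-05) at 10 mM. At 1 mM 5.69% of all genes tested were called higher, and 18.1% with the block.

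The other eIF3 genes that rose at 10 mM were Eif3d (0.57), whose protein can itself bind the cap, Eif3e (0.53), Eif3m (0.42), Eif3f (0.36), Eif3h (0.27) and Eif3i (0.22), with adjusted p of 4.49e-05 to 0.0247. Eif3h lost its call without control replicate 2 or 3 or 10 mM replicate 1 or 3 (adjusted p 0.0613 to 0.111), and Eif3i without control replicate 2 or 3 (adjusted p 0.0554 and 0.0601). Both lost it under library totals alone (adjusted p 0.0886 and 0.0773). Eif3l (0.20), Eif3g (0.15), Eif3b (0.12) and Eif3k (0.08) had adjusted p of 0.0557 to 0.326, and 1.01e-06 to 0.0324 with the block. So the core genes Eif3a and Eif3c moved further than Eif3b, although these differences between genes were not tested. Eif3j1 was near the limit of detection, with 0.367 to 0.502 CPM in control libraries, 0.555 to 0.765 CPM at 1 mM and 0.545 to 0.762 CPM at 10 mM. Its difference at 10 mM was 0.55 (SE 0.248, adjusted p = 0.0901). It shares 1107 exon bases with Spg11 on the other strand, and 51% of its windows occur in other genes, among them Eif3j2, which was listed at 0 in every library.

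Of 12 genes of the cap complex and its helpers, 4 rose at 10 mM (Eif4b, Eif4a2, Eif4g3 and Eif4g2) and 3 fell (Eif4a3, Eif4g1 and Eif4e2), with a median of 0.02. These counts lie near the shares of all genes tested, 25.7% called higher and 24% lower. At 1 mM 1 rose and 2 fell (4 and 5 with the block), against 5.69% and 4.34% of all genes (18.1% and 18.3% with the block). Eif4b (ENSMUSG00000058655, chromosome 15, 102073773 to 102097173) encodes eIF4B, which stimulates the helicase eIF4A. It had 515, 482 and 504 CPM in control libraries, 603, 562 and 596 CPM at 1 mM and 859, 817 and 852 CPM at 10 mM, without overlap and with little spread. The rise was 0.23 (SE 0.0456, adjusted p = 0.00983) at 1 mM and 0.75 (SE 0.0457, adjusted p = 6.58e-07) at 10 mM, and 10 mM stood 0.52 above 1 mM (adjusted p = 8.33e-05). The call at 1 mM was lost without 1 mM replicate 1 (adjusted p = 0.0517). Eif4h, a relative of Eif4b that also stimulates eIF4A, differed by -0.05 at 10 mM (adjusted p = 0.56).

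Eif4g1 (ENSMUSG00000045983, chromosome 16, 20668313 to 20692884) encodes the scaffold that joins cap, helicase and eIF3. It had 662, 648 and 706 CPM in control libraries, 596, 590 and 608 CPM at 1 mM and 573, 569 and 604 CPM at 10 mM. Every treated library stood below every control library. The log2 fold change was -0.17 (SE 0.0454, adjusted p = 0.0416) at 1 mM and -0.21 (SE 0.0454, adjusted p = 0.00326) at 10 mM. At 1 mM the call was lost without any 1 mM library, without control replicate 1 or 3, or without 10 mM replicate 1 or 3 (adjusted p 0.0509 to 0.167). Eif4g2, which lacks the eIF4E-binding part and serves translation that does not use the cap-binding protein, rose by 0.27 at 10 mM (adjusted p = 0.00174). It averaged 1419 ± 65.7 CPM at 10 mM and 1173 ± 60.9 CPM in control libraries (SD, n = 3 each), more counts than any other of the 46 genes. Eif4g3, the other eIF4G with an eIF4E-binding part, rose by 0.32 (adjusted p = 4.96e-04).

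Eif4e (ENSMUSG00000028156, chromosome 3, 138526179 to 138559696), the cap-binding protein itself, had 150, 135 and 149 CPM in control libraries, 141, 125 and 140 CPM at 1 mM and 154, 139 and 158 CPM at 10 mM. The 3 ranges overlapped. Against the control it differed by -0.10 (SE 0.0676, adjusted p = 0.432) at 1 mM and by 0.05 (SE 0.0676, adjusted p = 0.539) at 10 mM, and with the block it was called lower at 1 mM (adjusted p = 0.00947) and higher at 10 mM than at 1 mM (0.15, adjusted p = 1.12e-04). Eif4e2, which binds the cap weakly and can repress translation, fell by 0.17 at 10 mM (adjusted p = 0.0188), a call lost without control replicate 3 (adjusted p = 0.0505). Eif4e3, another cap-binding relative, had 9.1 to 10.8 CPM in all libraries and was not called.

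The helicase genes also differed. Eif4a2 rose by 0.40 at 10 mM (adjusted p = 2.05e-04), and Eif4a1 differed by -0.05 (adjusted p = 0.762), with 62.9% of its windows shared with other genes. The exons of Eif4a2 hold small nucleolar RNA genes on the same strand. Eif4a3 (ENSMUSG00000025580, chromosome 11, 119288363 to 119300089) encodes the helicase of the exon junction complex and not of eIF4F. It had 157, 142 and 153 CPM in control libraries, 134, 122 and 129 CPM at 1 mM and 125, 121 and 128 CPM at 10 mM. The treated libraries all lay below the control ones. It fell by 0.23 (SE 0.0535, adjusted p = 0.0216) at 1 mM and by 0.27 (SE 0.0535, adjusted p = 0.00168) at 10 mM. The call at 1 mM was lost without control replicate 1 or 3 or 1 mM replicate 2 or 3 (adjusted p 0.0652 to 0.0939). Eif4enif1, which carries eIF4E into the nucleus, differed by 0.05 at 10 mM (adjusted p = 0.547).

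Both genes of eIF5A fell. eIF5A carries the modified lysine hypusine and helps ribosomes through stretches that are slow to form peptide bonds, in elongation and termination. Eif5a (ENSMUSG00000078812, chromosome 11, 69916714 to 69921958) had 369, 346 and 389 CPM in control libraries, 297, 294 and 312 CPM at 1 mM and 281, 259 and 296 CPM at 10 mM. Eif5a2 (chromosome 3, 28781276 to 28798846) had 30.6, 31.9 and 32.6 CPM in control libraries, 23.5, 26.5 and 22.6 CPM at 1 mM and 25.9, 23.9 and 25.6 CPM at 10 mM. For both, every treated library lay below every control library, while the doses overlapped each other. Eif5a fell by 0.29 (SE 0.0597, adjusted p = 0.0121) at 1 mM and by 0.40 (SE 0.0598, adjusted p = 2.99e-04) at 10 mM. Eif5a2 fell by 0.39 (SE 0.0743, adjusted p = 0.00784) and by 0.34 (SE 0.0742, adjusted p = 0.00333). The call of Eif5a at 1 mM was lost without 1 mM replicate 1 or without control replicate 3 (adjusted p 0.0524 and 0.0545). Between the doses Eif5a differed by -0.11 (adjusted p = 0.187), and was called lower at 10 mM with the block (adjusted p = 0.00159) and under library totals alone (-0.19, adjusted p = 0.0235). Eif6, which keeps the large ribosomal subunit apart from the small one, differed by 0.05 at 10 mM (adjusted p = 0.571). These windows of Eif5a and Eif5a2 are the ones shown above with CACGTG in capitals.

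**Figure D2:**
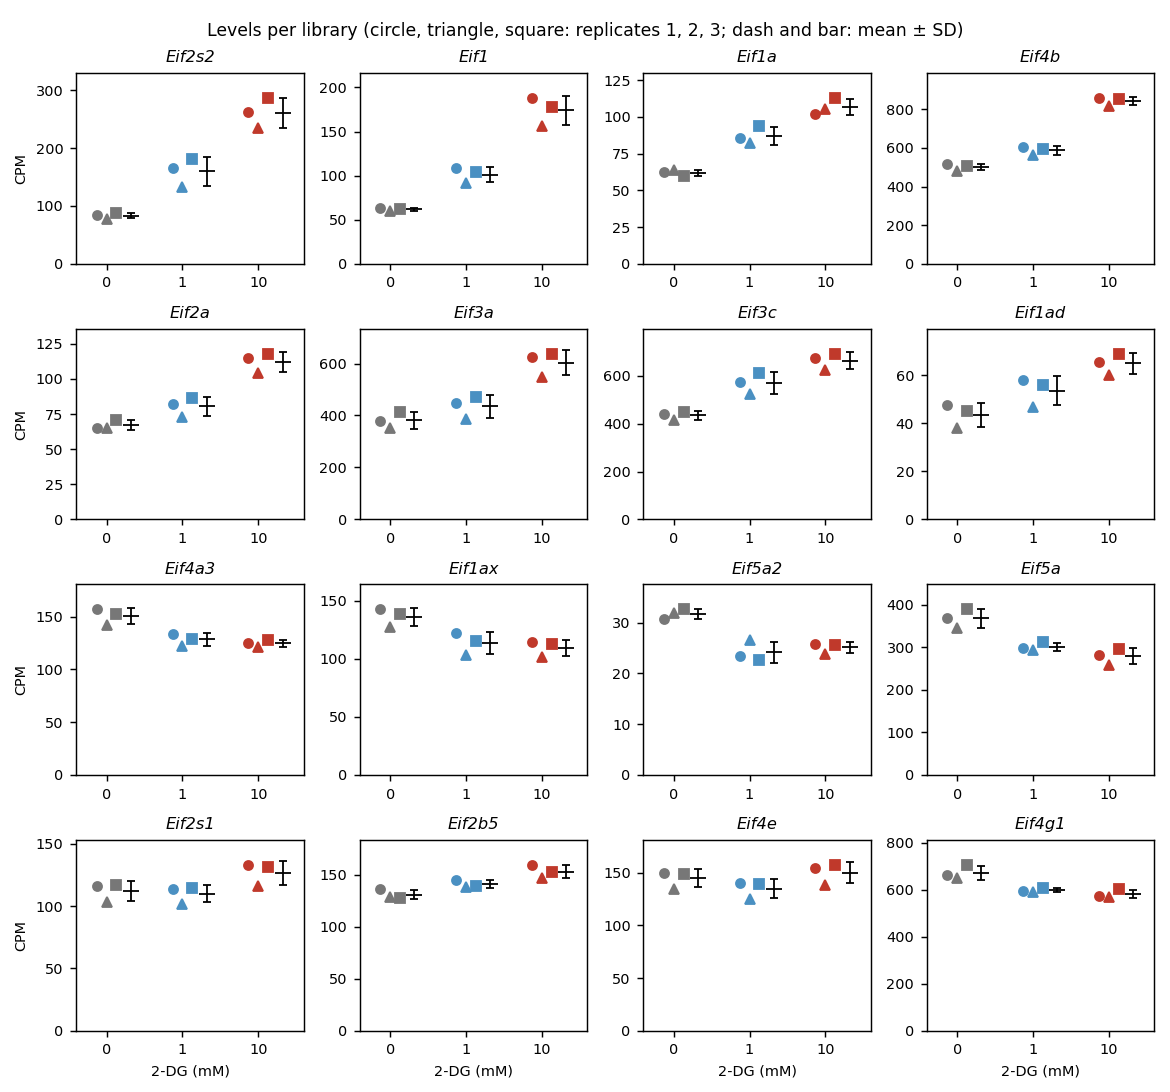
Level in CPM (y axis, from 0) in each library of the 16 genes given library by library, against the dose of 2-DG in mM (x axis: 0, 1 and 10); circles, triangles and squares are replicates 1, 2 and 3, and dashes with bars are means ± SD of 3 libraries. Eif2s2 climbs to 234 to 287 CPM at 10 mM with no overlap between doses, Eif2s1 and Eif4e overlap the control, and Eif5a, Eif5a2, Eif1ax, Eif4a3 and Eif4g1 lie below it at both doses.

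Pairs of paralogues or subunits were set against each other within each library, as ratios of CPM per kilobase of exon. The pairs were chosen after their values were seen, so their ratios are a description and were not tested. Eif2s2 over Eif2s1 was 0.53, 0.555 and 0.545 in the control, 1.07, 0.952 and 1.16 at 1 mM and 1.45, 1.48 and 1.6 at 10 mM. That made the mean ratio 2.77-fold at 10 mM against the control. Per kilobase of exon, the RNA of the beta subunit thus stood below that of the alpha subunit in every control library. At 10 mM it stood above the alpha subunit in every library. That order can depend on the length used, since Eif2s2 has 6755 exon bases but 2542 bases in its longest coding transcript. Eif2s1 has 4951 and 3405, and levels by coding length were not compared. Per kilobase of the longest transcript of any kind, mean levels kept the order. Eif2s2 had 20.3 and Eif2s1 33 CPM per kilobase in the control, and 63.7 and 37.25 at 10 mM. The change of the ratio between doses does not depend on length. Eif1a over Eif1ax was 0.555, 0.628 and 0.546 in the control, 0.883, 0.999 and 1.02 at 1 mM and 1.13, 1.31 and 1.27 at 10 mM, 2.15-fold at 10 mM against the control. Per kilobase of exon, the order of this pair too was turned round at 10 mM.

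Eif1 over Eif1b averaged 0.522 at 10 mM and 0.209 in the control, 2.50-fold, and Eif1b had the higher level per length in both. Eif4a2 over Eif4a1 averaged 2.13 at 10 mM and 1.56 in the control, 1.37-fold, and Eif4g2 over Eif4g1 averaged 1.75 at 10 mM and 1.25 in the control, 1.40-fold. At 1 mM the Eif4a2 and Eif4a1 ratio overlapped the control. Eif5a2 over Eif5a averaged 0.0427 at 10 mM and 0.0408 in the control, with overlap.

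**Figure D3:**
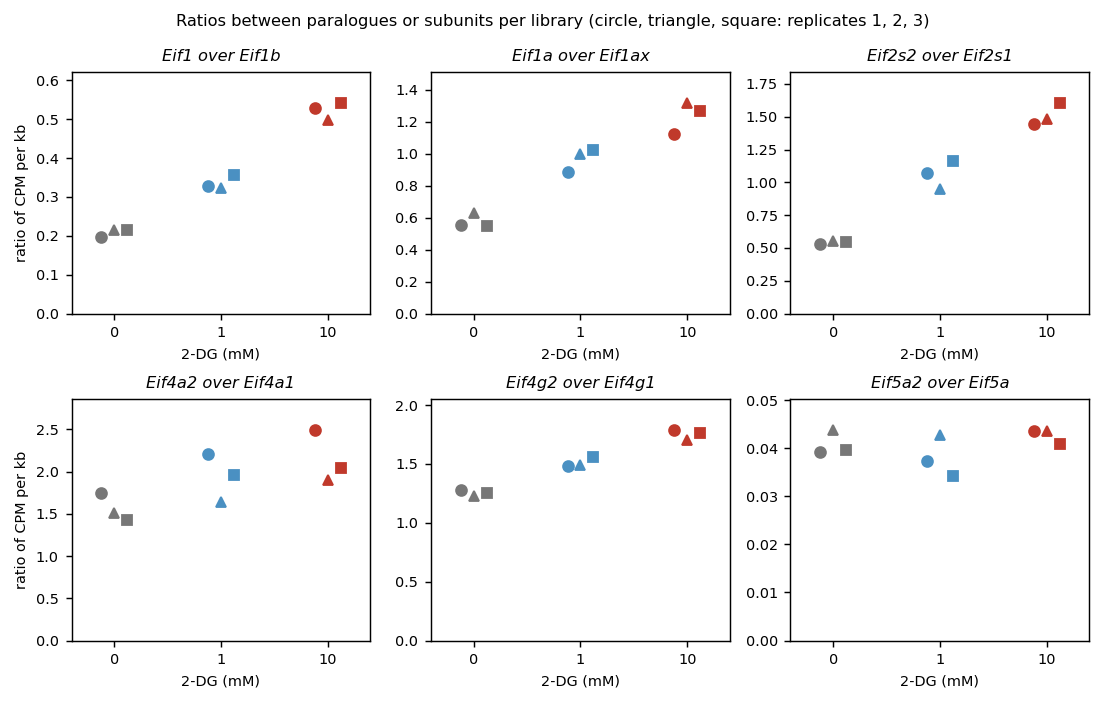
Ratio of CPM per kilobase (y axis, from 0) between paralogues or subunits in each library, against the dose of 2-DG in mM (x axis: 0, 1 and 10); circles, triangles and squares are replicates 1, 2 and 3. Eif2s2 over Eif2s1 lies near 0.54 in the control and between 1.45 and 1.6 at 10 mM, and Eif5a2 over Eif5a overlaps between doses.

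Levels of different genes were compared per kilobase of exon. Among eIF3 subunits the median was 69.2 CPM per kilobase at 10 mM and 49.3 CPM per kilobase in the control. In control libraries the subunits ran from 20.02 (Eif3e) to 124 (Eif3c) CPM per kilobase, leaving aside Eif3j1 at 0.0772. Among eIF2B subunits Eif2b5 stood highest, at 50.4 CPM per kilobase in the control, and Eif2b3 lowest, at 4.13. Among cap complex genes Eif4g2 had 115 and Eif4b 112 CPM per kilobase in the control, whereas at 10 mM Eif4b had 189 and Eif4g2 140. Eif4e had 25.0 CPM per kilobase at 10 mM and 24.1 in the control. These levels depend on the exons counted as length and were not tested.

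Other genes that act on these factors were listed by role. Of 19 genes that regulate eIF4E or the cap and tail of mRNAs, 9 rose and 5 fell at 10 mM, against 25.7% and 24% of all genes tested, with a median of 0.13. Eif4ebp1, whose protein holds eIF4E away from eIF4G, averaged 13.9 ± 2.4 CPM in control libraries, 115 ± 17.3 CPM at 1 mM and 194 ± 27.9 CPM at 10 mM (SD, n = 3 each). It rose by 3.05 (adjusted p = 5.03e-07) at 1 mM and 3.80 (adjusted p = 3.64e-08) at 10 mM, while its target Eif4e was not called and its relative Eif4ebp2 fell by 0.34 at 10 mM (adjusted p = 0.00656). Of the kinases that phosphorylate eIF4E, Mknk1 rose by 1.02 (adjusted p = 6.96e-07) and Mknk2 fell by 0.68 (adjusted p = 1.15e-04) at 10 mM. Pabpc1, the poly(A)-binding protein that contacts eIF4G, rose by 0.53 (adjusted p = 5.30e-05). Ncbp2, of the nuclear cap-binding complex, fell by 0.45 (adjusted p = 2.69e-04).

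Of 11 genes that phosphorylate eIF2, dephosphorylate it, tune either step or assemble it, 7 rose and 2 fell at 10 mM. Their median was 0.23, and 25.7% of all genes tested were called higher and 24% lower there. Ppp1r15a (GADD34), the stress-induced phosphatase subunit, rose by 2.30 (adjusted p = 5.17e-07), Dnajc3 (p58IPK), an inhibitor of eIF2 kinases and chaperone, by 2.27 (adjusted p = 7.98e-09), and Eif2ak3 (PERK), the kinase of the endoplasmic reticulum, by 1.41 (adjusted p = 1.47e-08). Eif2ak4 (GCN2) differed by 0.05 (adjusted p = 0.485). Eif2ak2 (PKR) fell by 0.69 (adjusted p = 0.023), a call lost without control replicate 3 or 10 mM replicate 1 or 2 (adjusted p 0.0542 to 0.0891). Cdc123, which assembles eIF2 from its subunits, fell by 0.34 (adjusted p = 1.97e-04), whereas Eif2s2 rose and Eif2s1 was not called.

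**Figure D4:**
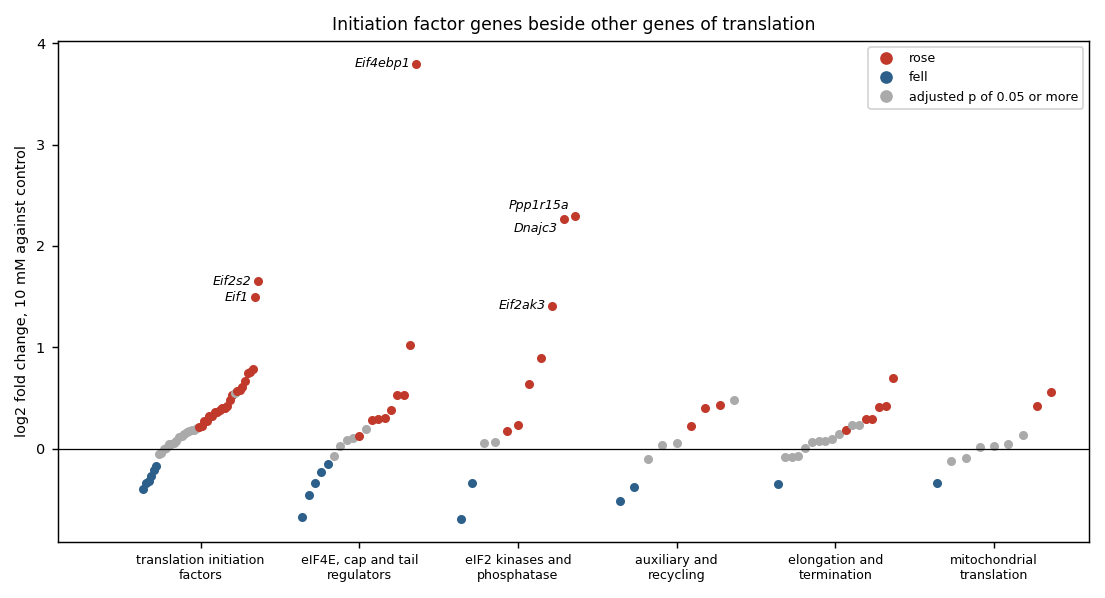
Log2 fold change at 10 mM 2-DG against the control (y axis) of the 46 initiation factor genes (left) and of 5 lists of other genes of translation, each list sorted by its values along the x axis; red points rose, blue points fell and grey points had an adjusted p of 0.05 or more. Eif4ebp1 stands highest at 3.80, above Ppp1r15a (2.30), Dnajc3 (2.27) and Eif2s2 (1.65), and each group holds genes that fell.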

How the data were processed

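The authors' deposited counts are whole numbers of reads for each gene, not normalized, in 1 column per library. Per the labels' protocols, total RNA was amplified to cDNA, depleted of ribosomal RNA in a stranded kit, read as 75-base pairs and aligned with STAR to mm10. The submitters' processing notes name HTSeq and bcl2fastq 2.17. No label or header gives the annotation or the strand setting of the counting, and genes that overlap or share sequence are therefore uncertain to that extent. The 1 row that names no gene held at most 0.000216% of a library's counts and was left out.

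Counts were filtered with filterByExpr (minimum count 10, minimum total 15), scaled with TMM and fitted with edgeR's quasi-likelihood model to all 9 libraries, without a block. Tests were two-sided, with Benjamini-Hochberg adjustment over 15153 genes and a threshold of 0.05. Versions were edgeR 4.0.16, DESeq2 1.42.0 and limma 3.58.1 under R 4.3.3, and the fit was tested on simulated data. Libraries of the same replicate number deviated together (correlations of 0.351 to 0.518 between groups, against -0.344 to -0.112 for other numbers). Deviations were taken from the mean of each group's 3 libraries, so positive values for same numbers make the others negative on average. The negative values are therefore not a separate observation. Blocked values stand beside values given in the text where they change a call. The pairing comes from these data and the numbers in the library titles. Alternatives were size factors by median of ratios, library totals alone, no filter, the replicate block, 6 libraries only, DESeq2 and each library left out. Coordinates, lengths and shared windows come from GENCODE M21 (GRCm38). Each SE was derived from the test, as the absolute log2 fold change over the square root of the quasi-likelihood F statistic. Standard errors include counting error, and reads counted without molecular identifiers may repeat a molecule.

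The members and lists were chosen with earlier results of these data known. Levels in every library were given for members called at 10 mM, the 8 that rose most and the 4 that fell most, and for Eif2s1, Eif2b5, Eif4e, Eif4g1 and Eif5a. Of the other lists, up to 2 genes that rose most and 2 that fell most were named, with Eif4ebp1, Eif4ebp2, Eif2ak3, Eif2ak4, Ppp1r15a, Eef2 and Pabpc1. Eif1b and the overlapping genes were added after their values were seen.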

Additional observations from a re-analysis of the deposited data

How the results depend on the processing

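The calls of the 46 genes at 10 mM against the control moved by under 1.5 times under every alternative run, with 20 to 32 higher and 5 or 6 lower. Of all genes in each of these fits, 16.5 to 34.4% were called higher and 15.7 to 33.8% lower. At 1 mM the replicate block gave 21 higher and 8 lower, a fit to the 6 libraries compared gave 3 lower, and leaving out each library gave 4 to 8 higher and 1 to 5 lower. The block called 18.1% of all genes higher and 18.3% lower there, and the fit to 6 libraries 3.28% lower. Leaving out each library gave 3.32 to 5.83% of all genes higher and 1.91 to 4.39% lower. Between the doses the block gave 35 higher and 2 lower, library totals alone 12 and 2, and leaving out each library 14 to 20 and 0. The shares of all genes there were 30.7% higher and 25.6% lower with the block, and 10.3% and 19.5% under library totals. Leaving out each library gave 12.1 to 15.3% higher and 9.08 to 15% lower. Over all genes the block gave 2736 higher and 2770 lower at 1 mM, where leaving out each library gave 509 to 894 and 293 to 674. It gave 4648 higher and 3880 lower between the doses, where library totals alone gave 1564 higher. With the length of the longest transcript, the eIF3 median was 95.8 CPM per kilobase at 10 mM and 74.6 in the control. With the block, Eif1ad (0.28), Eif2b5 (0.11) and Eif2s1 (0.20) were also called higher at 10 mM than at 1 mM (adjusted p 5.56e-06 to 0.00202), and 0 calls of the 46 genes were lost.

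Signs under the alternatives were followed for all initiation factor genes at 10 mM against the control. At 1 mM and between the doses they were followed only for genes given library by library and genes called there. Reversals of other genes in those 2 comparisons are therefore not listed. Among the genes followed, the log2 fold changes that reversed were of genes not called. Under library totals alone these were, at 10 mM against the control, Eif2d (-0.0864), Eif3k (-0.0147), Eif4e (-0.0373), Eif4enif1 (-0.0428), Eif6 (-0.0451) and Eif2ak4 (-0.0371), and, between the doses, Eif5a2 (-0.0263). Median-of-ratios size factors gave Eif2d -0.0015. Leaving out each library at 10 mM gave Eif2d -0.054 to 0.0547, Eif2s3y -0.0081 to 0.34, Eif4a1 -0.179 to 0.0449, Eif4e -0.0136 to 0.0894, Eif4e3 -0.0791 to 0.055 and Eif6 -0.0142 to 0.0987, and at 1 mM Eif2s1 -0.0845 to 0.0234. The cause was not tested. Depth was lowest for Eif3j1, at 15 to 37 counts a library, and 3 libraries a group limit the small differences.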

Other observations

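Further lists of translation genes are given by their counts at 10 mM against the control, where 25.7% of all genes tested were called higher and 24% lower. Of 9 auxiliary and recycling factors, 3 rose and 2 fell, with a median log2 fold change of 0.05. Abce1, which splits ribosomes after termination, rose by 0.43 (adjusted p = 4.36e-05), and the helicase Ddx3x rose by 0.40 (adjusted p = 0.011). Mcts1, a partner of DENR in reinitiation, fell by 0.38 (adjusted p = 7.74e-04), and the helicase Dhx9 fell by 0.52 (adjusted p = 4.50e-04). Of 18 genes of elongation, hypusine formation and termination, 6 rose and 1 fell (10 and 2 with the replicate block, which called 34.4% and 33.8% of all genes), with a median of 0.12. Hbs1l, a ribosome rescue factor, rose by 0.69 (adjusted p = 3.88e-05) and Eef2, the translocase, by 0.42 (adjusted p = 2.27e-04). Eefsec, the elongation factor for selenocysteine, fell by 0.35 (adjusted p = 0.0413), a call lost without control replicate 1 or 3, 1 mM replicate 1 or any 10 mM library (adjusted p 0.0518 to 0.134). Of 9 mitochondrial translation factors, 2 rose and 1 fell, with a median of 0.02. Mtif3, a mitochondrial initiation factor, rose by 0.56 (adjusted p = 9.16e-05), Tsfm by 0.42 (adjusted p = 0.00223), and Gfm2, which recycles mitochondrial ribosomes, fell by 0.34 (adjusted p = 7.62e-04).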
